A study of Mus musculus with 15 samples.

Results

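Expression of 7 Schwann cell and myelin genes was examined in the RNA of mouse ears, namely *Mbp*, *Pmp22*, *Prx*, *Mag*, *Cnp*, *Sox10* and *S100b*. They were selected by exact gene symbol from the 21110 genes measured in the series, and all 7 were found in every library. In the wild type, *Mbp*, *Prx*, *Mag* and *Cnp* were called lower at 10 than at 2 weeks of age, beside 19.4% of all genes. *S100b* was called higher, beside 6.18%. Of these calls, only those of *Mag* and *S100b* held under every alternative setting and with any mouse left out. In ears of mice labelled *Socs3* cKO, none of the 7 was called between the ages by the same test, beside 3.54% of all genes. The test of the difference between genotypes in the change with age was passed by *S100b* alone, beside 25.6% of all genes. It was not passed with the trend of each library with transcript length and GC content removed (-0.98). At 2 weeks *S100b* stood 3.41-fold above the wild type (log2 fold change 1.71, SE 0.27, n = 4 and 4). That call was lost with the same trend removed (0.99, limma adjusted p = 0.0129) or without wild type replicate 1 or 2. In the same comparison the median log2 fold change was 1.03 for adipocyte markers and -0.16 for cartilage markers. The part of these cells in the *S100b* values was not tested.

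Schwann cells are the glia of peripheral nerves. Those around large axons wrap them in myelin, a stack of membrane held together by a small set of abundant proteins, and those around fine axons, which make up much of the innervation of skin, ensheath them without myelin. SOX10 specifies the lineage and is kept throughout life, and together with EGR2 (also called KROX20) it drives the genes of the myelin sheath, which are made at a high rate while the sheath is being built after birth. Within the sheath, MBP and PMP22 belong to compact myelin, PRX (periaxin) links the outer Schwann cell membrane to the basal lamina, MAG (myelin-associated glycoprotein) sits on the membrane that faces the axon, and CNP is an enzyme of the cytoplasmic channels of the sheath. S100B is a calcium-binding protein of Schwann cells of both kinds, and is also made by adipocytes and cartilage cells.

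The study sequenced the RNA of ears from wild type C57BL/6 mice and from mice of that background with a keratin 5-specific conditional deletion of *Socs3* (*Socs3* cKO), an inhibitor of cytokine signalling. Keratin 5 is made by basal keratinocytes, so the deletion was aimed at the epidermis and not at nerves. Each library held the RNA of 1 mouse. There were 4 libraries of each genotype at 2 weeks, and at 10 weeks there were 3 of the wild type and 4 of the deletion. The labels name keratinocytes as the source and the ear as the tissue. Markers of basal keratinocytes summed to between 3130 and 7050 FPKM per library and those of dermal fibroblasts to between 4490 and 16000 FPKM, so the RNA is described here as that of whole ear, in which fewer Schwann cells and less RNA per Schwann cell cannot be told apart. FPKM counts sequenced fragments per kilobase of transcript, scaled to the mapped reads of the library, and is thus a level per length, so genes can be compared with one another on it.

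Group names are those of the labels throughout. The targeted gene itself, *Socs3*, was at 9.71 to 10.3 FPKM in the wild type and 1.25, 9.32, 12.6 and 3.51 FPKM in the libraries labelled *Socs3* cKO at 2 weeks (limma adjusted p = 0.179). At 10 weeks it was at 2.02 to 4.81 FPKM in the wild type and 29.8 to 47.7 FPKM in the libraries labelled *Socs3* cKO, which is opposite to a loss of transcript, so the level of *Socs3* in whole ear did not check the genotype labels. *Socs3* cKO replicate 1 at 2 weeks stood apart from every other library. Relative to the wild type at 2 weeks, its values fell by 1.91 on the log2 scale for each 10 points of transcript GC content. The other *Socs3* cKO libraries of that age had slopes of -0.61, -0.72 and -0.73. Results at 2 weeks are therefore given with and without replicate 1. At 10 weeks the slopes were -0.57, -0.49 and -0.29 in the wild type and between -0.85 and -0.59 in *Socs3* cKO. For each doubling of transcript length, they were -0.62, -0.32 and -0.58 in the wild type at 10 weeks. Those of the *Socs3* cKO libraries of both ages were between -0.76 and -0.07. Comparisons of ages thus also span libraries that differ in these trends. The wild type libraries at 10 weeks had fewer genes listed at 0 (1414 to 3176) than the other groups (4044 to 4423). Each group has its own run of library numbers in its labels, so that the series of libraries and the group cannot be told apart. Mapped reads, estimated from the smallest common values, were between 1.155e+07 and 1.631e+07 per library, which put 13.7 to 133 reads behind the *Mag* value of a library and 29.9 to 577 behind that of *Sox10*. Nothing in the sources says how the mice relate to litters, so p-values measure the spread between these mice.

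Positions and exon counts are those of the GENCODE annotation of mm9, the build of the files. *Prx* (chromosome 7, 28284343 to 28305233, plus strand, 6 exons) and *Mag* (chromosome 7, 31684202 to 31699851, minus strand, 13 exons) are on the same chromosome. *Pmp22* (chromosome 11, 62942484 to 62973049, 5 exons) and *Cnp* (chromosome 11, 100436218 to 100453043, 4 exons) share another and are both on the plus strand. *Sox10* lies on chromosome 15 from 78985343 to 78994920 on the minus strand with 4 exons, and *S100b* on chromosome 10 from 75716598 to 75723904 on the plus strand with 3 exons. Their longest coding transcripts differ in base composition, with a GC content of 48.3% for *S100b*, 48.6% for *Pmp22*, 51.0% for *Mbp*, 55.8% for *Cnp*, 57.7% for *Prx* and for *Mag*, and 61.7% for *Sox10*.

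Promoter sequences are shown for *Prx*, *Mag* and *Cnp*, which moved together in the wild type, and for *S100b*, which moved the other way. RefSeq entries (assembly GRCm38.p6) were at hand for 5 of the 7 genes, with 10 promoters in all, and the 250 bases before the start of each matched mm9 exactly at 1 place. Each line reads 5′ to 3′ on the strand of the gene. Capitals mark a match on either strand to ACAAAG, the core of sites bound by SOX proteins, or to GTGGGNG, the core of sites bound by EGR proteins. The stretches are chr7:28284093-28284342 (plus strand) for *Prx*, chr7:31699883-31700132 (minus strand) for the first of 3 promoters of *Mag*, chr11:100436003-100436217 (plus strand) for *Cnp*, where 35 bases inside the annotated gene were left out, and chr10:75716331-75716580 (plus strand) for *S100b*.
Prx: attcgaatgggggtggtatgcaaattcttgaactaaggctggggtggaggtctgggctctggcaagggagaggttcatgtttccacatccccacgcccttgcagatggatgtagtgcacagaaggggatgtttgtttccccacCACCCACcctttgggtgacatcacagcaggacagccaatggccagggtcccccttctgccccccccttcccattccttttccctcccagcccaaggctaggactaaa
Mag: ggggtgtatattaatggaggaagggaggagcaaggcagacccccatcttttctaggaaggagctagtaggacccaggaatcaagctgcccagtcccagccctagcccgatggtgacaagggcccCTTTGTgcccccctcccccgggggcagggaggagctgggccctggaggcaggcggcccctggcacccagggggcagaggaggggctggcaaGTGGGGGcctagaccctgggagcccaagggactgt
Cnp: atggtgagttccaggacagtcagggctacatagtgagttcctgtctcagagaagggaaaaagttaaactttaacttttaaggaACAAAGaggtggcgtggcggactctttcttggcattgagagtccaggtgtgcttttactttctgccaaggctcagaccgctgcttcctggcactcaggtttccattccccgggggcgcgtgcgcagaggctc
S100b: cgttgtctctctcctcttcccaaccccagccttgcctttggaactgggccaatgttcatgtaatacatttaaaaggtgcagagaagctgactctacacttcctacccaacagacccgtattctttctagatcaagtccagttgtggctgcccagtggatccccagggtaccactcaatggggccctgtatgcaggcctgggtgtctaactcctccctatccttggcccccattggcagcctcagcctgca

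The *Prx* promoter held 1 EGR match, which begins 107 bases before the start. The first *Mag* promoter held a SOX match at 126 bases and an EGR match at 35 bases before the start, its second promoter overlaps the first and held that SOX site at 67 bases from its own start, and *Cnp* held a SOX match at 167 bases. No match was found in the windows of *S100b* and of the 4 promoters of *Pmp22*, and none of the 10 promoters held TATAAA on either strand. Among 32536 mouse promoters of the same length, 16.5% held the SOX core, 28.1% the EGR core and 12.3% TATAAA. These are matches of letters, and binding was not measured.

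The order of the levels was nearly fixed among the sheath genes and changed for *S100b*. In the wild type at 2 weeks the order from high to low was *Pmp22* (192.0 FPKM ± 11.3, SD, n = 4), *Mbp* (87.4 ± 3.73), *Cnp* (23.2 ± 1.81), *Prx* (17.9 ± 0.351), *S100b* (17.2 ± 2.93), *Sox10* (13.6 ± 0.422) and *Mag* (3.66 ± 0.26). The ranges of *Prx* and *S100b* overlapped there, and no other neighbours did. At 10 weeks *S100b* was in the second place in both genotypes, between *Pmp22* and *Mbp*, and in *Socs3* cKO at 2 weeks it was in the third, after *Mbp*, but the ranges of *S100b* and *Mbp* overlapped in each of these 3 groups. *Pmp22* was first in all 4 groups, and *Cnp*, *Prx*, *Sox10* and *Mag* kept that order among themselves. *Prx* and *Sox10* overlapped in the same 3 groups, and in *Socs3* cKO at 2 weeks *Cnp* overlapped with *Prx* and *Sox10* with *Mag*.

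**Figure D1:**
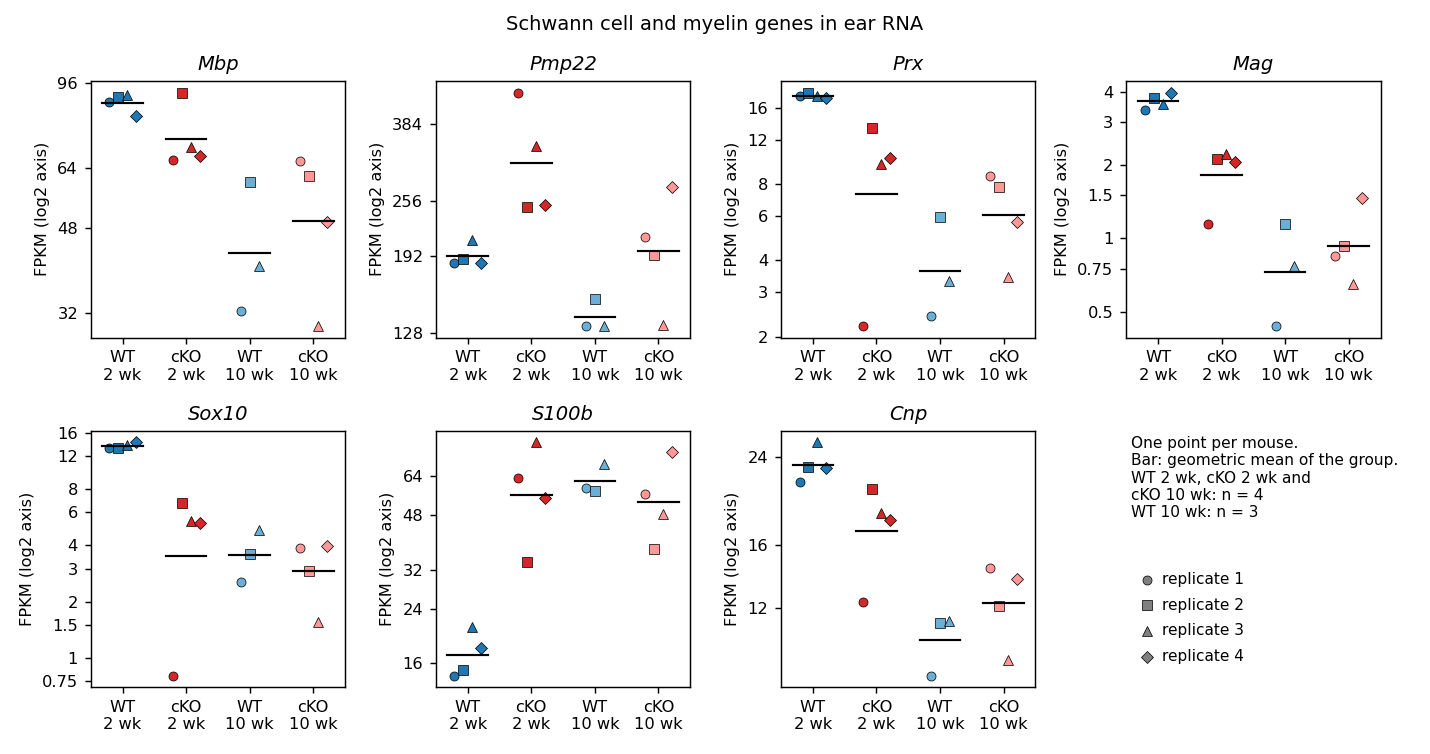
FPKM of the 7 genes on log2 axes, with 1 point per mouse, the marker giving the replicate and the bar the geometric mean of the group (n = 4, and n = 3 for the wild type at 10 weeks). *Mbp*, *Prx*, *Mag*, *Sox10* and *Cnp* are highest in the wild type at 2 weeks, *S100b* is lowest there (14.6 to 21.0 FPKM), and *Socs3* cKO replicate 1 at 2 weeks lies far below its group for *Prx* (2.2 FPKM) and *Sox10* (0.802 FPKM).

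Of the compact myelin genes, *Mbp* (chromosome 18 of mm9, 82644538 to 82755029, plus strand, 4 exons in the longest coding transcript), whose protein seals the cytoplasmic faces of the sheath, was at 87.5, 89.6, 90.4 and 82.1 FPKM in the wild type at 2 weeks and at 32.4, 59.7 and 40.1 FPKM at 10 weeks. In *Socs3* cKO it was at 66.3, 91.6, 70.7 and 67.7 FPKM at 2 weeks and at 66.1, 61.7, 30.1 and 49.5 FPKM at 10 weeks. Every mouse of 10 weeks was thus below every mouse of 2 weeks of its own genotype, by a narrow margin in *Socs3* cKO. The genotypes overlapped at both ages, since *Socs3* cKO replicate 2 at 2 weeks was the highest of all. *Pmp22*, the tetraspan protein of compact myelin, which fibroblasts and epithelia also make, was the most abundant of the 7. Its wild type values were 185.0, 189.0, 209.0 and 185.0 FPKM at 2 weeks and 133.0, 153.0 and 133.0 FPKM at 10 weeks, and those of *Socs3* cKO were 452.0, 248.0, 341.0 and 251.0 FPKM and then 212.0, 193.0, 134.0 and 276.0 FPKM. All 4 libraries labelled *Socs3* cKO at 2 weeks were above the wild type of that age, and replicate 1, the lowest for several genes of the sheath, was here the highest.

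*Prx*, whose protein is known from myelinating Schwann cells, had the least spread of the 7 in the wild type at 2 weeks, at 17.8, 18.4, 17.9 and 17.6 FPKM. It was at 2.41, 5.96 and 3.33 FPKM in the wild type at 10 weeks, with no overlap. In *Socs3* cKO it was at 2.2, 13.4, 9.64 and 10.2 FPKM at 2 weeks, all below the wild type, and at 8.61, 7.79, 3.45 and 5.68 FPKM at 10 weeks, overlapping both neighbours. *Mag*, the adhesion protein of the inner sheath, was the lowest of the 7, at 3.35, 3.76, 3.56 and 3.96 FPKM in the wild type at 2 weeks and 0.437, 1.15 and 0.773 FPKM at 10 weeks. In *Socs3* cKO, *Mag* was at 1.15, 2.12, 2.22 and 2.05 FPKM at 2 weeks and at 0.845, 0.93, 0.651 and 1.47 FPKM at 10 weeks, where in both genotypes together only the mice at 1.15 and 1.47 FPKM reached 1 FPKM, too few for a test of genotype. *Cnp* was at 21.4, 23.0, 25.7 and 22.8 FPKM in the wild type at 2 weeks and at 8.78, 11.2 and 11.3 FPKM at 10 weeks. Its *Socs3* cKO values, 12.3, 20.7, 18.6 and 18.0 FPKM at 2 weeks and 14.4, 12.1, 9.44 and 13.7 FPKM at 10 weeks, lay between those 2 groups except for overlap with the older wild type.

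The lineage regulator *Sox10*, which melanocytes also express, was at 13.3, 13.3, 13.8 and 14.2 FPKM in the wild type at 2 weeks and at 2.56, 3.61 and 4.8 FPKM at 10 weeks. The *Socs3* cKO values were 0.802, 6.74, 5.39 and 5.29 FPKM at 2 weeks, all far below the wild type of that age, and 3.89, 2.92, 1.56 and 3.97 FPKM at 10 weeks. The wild type at 2 weeks therefore stood alone for *Sox10*, and the other 3 groups overlapped. *S100b* had the reverse pattern. Its level was 14.6, 15.2, 21.0 and 17.9 FPKM in the wild type at 2 weeks and 58.8, 57.3 and 70.3 FPKM at 10 weeks, and in *Socs3* cKO it was 63.5, 34.0, 82.4 and 54.5 FPKM at 2 weeks and 56.0, 37.5, 48.4 and 76.8 FPKM at 10 weeks. Again the wild type at 2 weeks stood alone, this time as the lowest group, and the other 3 overlapped.

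To ask how the genes changed with age in the wild type, the values at 10 weeks were compared with those at 2 weeks by limma on log2(FPKM + 0.1), a scale that understates changes of low genes such as *Mag*. A gene was called changed at an adjusted p below 0.01 and a log2 fold change of at least 1 in size. Of all 13937 genes tested 25.5% were called. Of the 7 genes, 4 were called lower, beside 19.4% of all genes, and 1 was called higher, beside 6.18%. *Mag* fell 4.66-fold in mean FPKM (log2 fold change -2.17, SE 0.32, adjusted p = 0.000128), *Prx* 4.6-fold (-2.27, SE 0.5, adjusted p = 0.00218), *Cnp* 2.23-fold (-1.16, SE 0.2, adjusted p = 0.000384) and *Mbp* 1.98-fold (-1.03, SE 0.25, adjusted p = 0.0045). *S100b* rose 3.61-fold (log2 fold change 1.86, SE 0.28, adjusted p = 0.000146). *Sox10* had a log2 fold change of -1.92 (SE 0.55) and missed the threshold at adjusted p = 0.0105, and *Pmp22* one of -0.46 (95% confidence interval -0.97 to 0.05, adjusted p = 0.12). The median log2 fold change of the 7 was -1.16 and that of all genes tested was -0.44.

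The calls of *Mbp* and *Cnp* depended on the scaling, and those of *Mbp* and *Prx* on single mice, although the log2 fold change of *Prx* stayed between -2.62 and -1.98 with each mouse left out. Median-of-ratios scaling moved the median of all genes from -0.44 to -0.05, and the log2 fold changes were then -0.64 for *Mbp* and -0.77 for *Cnp*, neither called, and quantile normalization gave -0.73 for *Cnp*. The call of *Mbp* was also lost without any of wild type replicates 1, 2 or 3 at 2 weeks or replicates 1 or 3 at 10 weeks (adjusted p up to 0.0306), and that of *Prx* without replicate 1 (-1.98, adjusted p = 0.0155) or replicate 3 (-2.21, adjusted p = 0.0122) at 10 weeks. The calls of *Mag* and *S100b* held under every alternative and with any mouse left out. *Sox10* was called when only the 2 wild type groups were fitted (adjusted p = 7.18e-05). With the length and GC trend removed, *Mbp* (-0.47) and *Cnp* (-0.97) were not called, *Sox10* was (-1.41), and *Prx* was at -1.43.

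In *Socs3* cKO, limma called none of the 7 genes between 10 and 2 weeks, beside 3.54% of all genes (2.01% higher and 1.53% lower). At an unadjusted p below 0.05, 4 of the 7 were lower and none higher, beside 26.4% of all genes. The log2 fold changes were -0.9 for *Mag* (95% confidence interval -1.53 to -0.27, adjusted p = 0.0685), -0.67 for *Pmp22* (-1.14 to -0.19), -0.56 for *Mbp* (-1.07 to -0.06), -0.48 for *Cnp* (-0.87 to -0.09), -0.29 for *Sox10* (-1.38 to 0.79), -0.28 for *Prx* (-1.27 to 0.7) and -0.08 for *S100b* (-0.63 to 0.47, adjusted p = 0.849). All 7 were below 0, with a median of -0.48, beside a median of 0.11 over all genes. Without replicate 1 at 2 weeks, *Prx* was at -0.85 (adjusted p = 0.0919), *Mag* at -1.11 (adjusted p = 0.0201) and *Sox10* at -0.97 (adjusted p = 0.0373), which are larger in size and still not called. With the length and GC trend removed *Mag* was called (-1.15, adjusted p = 0.00586).

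**Figure D2:**
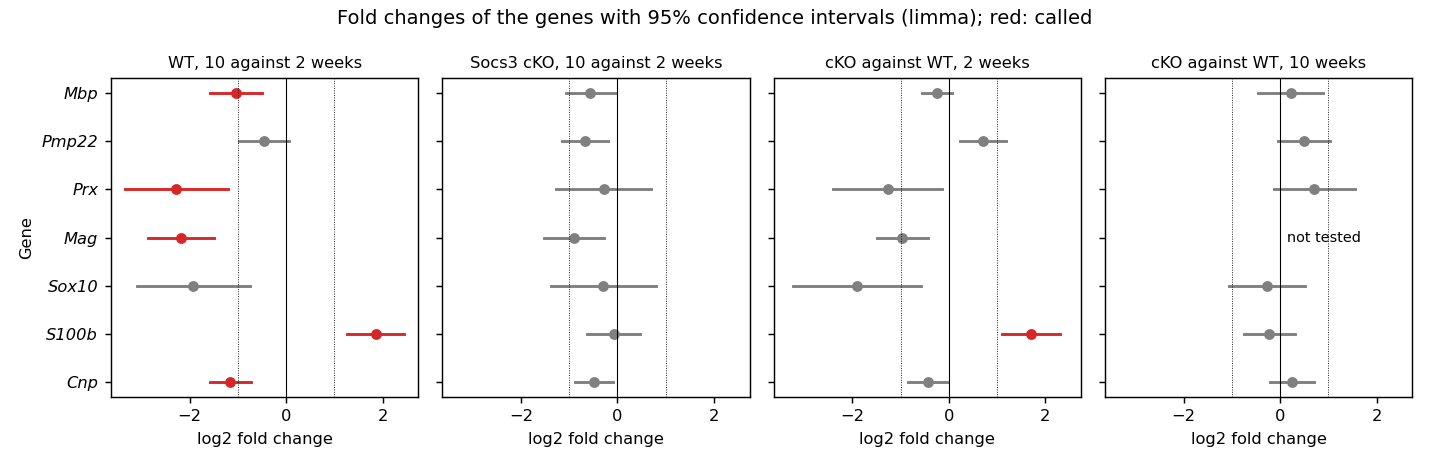
Log2 fold changes of the 7 genes with 95% confidence intervals from limma in 4 comparisons, with genes called in red and the fold threshold as dotted lines. The wild type panel between ages holds 5 of the 6 calls, 4 to the left (*Mag* at -2.17) and *S100b* to the right at 1.86, and the sixth is *S100b* at 2 weeks (1.71), while *Mag* was not tested at 10 weeks.

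The comparison of genotypes at 2 weeks asked how the ears of the 2 genotypes differed early in life. *S100b* was the only gene of the 7 to be called, beside 14.4% of the 13524 genes tested (7.24% higher and 7.19% lower), and it was higher in the libraries labelled *Socs3* cKO (log2 fold change 1.71, SE 0.27, adjusted p = 0.00228). The sheath genes and *Sox10* had negative values that were not called, -1.9 for *Sox10* (SE 0.58, adjusted p = 0.0283), -1.27 for *Prx* (SE 0.49, adjusted p = 0.0611), -0.96 for *Mag* (SE 0.23, adjusted p = 0.0121), -0.44 for *Cnp* (SE 0.18, adjusted p = 0.071) and -0.25 for *Mbp* (SE 0.14, adjusted p = 0.154). For *Sox10*, *Prx*, *Mag* and *Cnp* every library labelled *Socs3* cKO was below every wild type library, and for *Pmp22* every one was above (log2 fold change 0.71, SE 0.21, adjusted p = 0.0239). The share of all genes without such overlap is not given here, so this is a description of these genes only. At an unadjusted p below 0.05, 4 of the 7 were lower and 2 higher, beside 58.0% of all genes.

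The values of *Sox10*, *Prx* and *Mag* were smaller without replicate 1. Without it the log2 fold change was -1.23 for *Sox10* (adjusted p = 5.53e-05), which is then called, -0.71 for *Prx* (adjusted p = 0.00142), -0.75 for *Mag* (adjusted p = 0.00116), -0.28 for *Cnp* (adjusted p = 0.0336), -0.2 for *Mbp* (adjusted p = 0.168), 0.53 for *Pmp22* (adjusted p = 0.00952) and 1.65 for *S100b* (adjusted p = 0.00112), beside 19.9% of all genes called. The call of *S100b* was lost without wild type replicate 1 (adjusted p = 0.0104) or replicate 2 (adjusted p = 0.0107). With the trend of each library with transcript length and GC content removed, *S100b* was at 0.99 (adjusted p = 0.0129), *Sox10* at -0.69 (adjusted p = 0.0515), *Mag* at -0.22, *Prx* at -0.11, *Cnp* at 0.08, *Mbp* at 0.15 and *Pmp22* at 0.2, and none was called.

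The GC dependence covered the Schwann cell genes at large. Among 39 genes, which were the 7 and those of 3 lists described next (other myelin genes, regulators, and genes of immature and non-myelinating Schwann cells), the 21 with a GC content of at least 50% had a median log2 difference of -1.19 between genotypes at 2 weeks, and the 18 below 50% had one of 0.22. Over all genes tested the medians were -0.7 (6986 genes) and 0.22 (6051 genes). In replicate 1 alone the GC-rich Schwann cell genes had a median of -2.49, and in replicates 2, 3 and 4 it was -0.44, -0.98 and -1.03. Over all genes tested of that GC content the medians were -1.58 in replicate 1 and -0.29, -0.5 and -0.4 in replicates 2, 3 and 4.

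**Figure D3:**
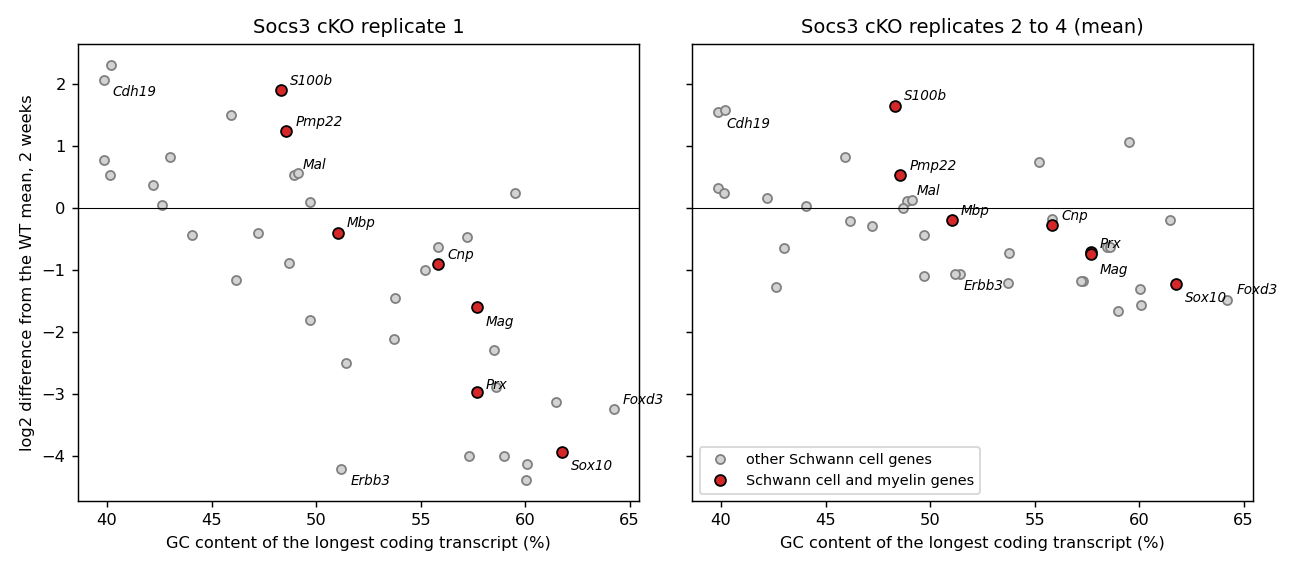
GC content of the longest coding transcript (%) against the log2 difference from the wild type mean at 2 weeks, for *Socs3* cKO replicate 1 (left) and the mean of replicates 2 to 4 (right). Red points are the 7 genes and grey points the other Schwann cell genes, and values fall with GC content in both panels, more steeply in replicate 1, where the median of the genes of at least 50% GC is -2.49.

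At 10 weeks, limma called none of the 6 genes tested between genotypes, beside 14.9% of the 13105 genes tested (12.5% higher and 2.43% lower). None had an unadjusted p below 0.05 either, beside 48.7% of all genes, and the 2 genotypes overlapped for each gene. The log2 fold changes were 0.71 for *Prx* (95% confidence interval -0.12 to 1.55), 0.5 for *Pmp22* (-0.04 to 1.03), 0.24 for *Cnp* (-0.21 to 0.69), 0.22 for *Mbp* (-0.45 to 0.89), -0.23 for *S100b* (-0.75 to 0.3) and -0.28 for *Sox10* (-1.06 to 0.51). The intervals of *Prx*, *Pmp22* and *Sox10* reach a difference of 1 on the log2 scale, and those of *Mbp*, *Cnp* and *S100b* do not. The values of *Mbp* and *Cnp* turned in sign under another scaling, and those of *Mbp*, *Sox10* and *S100b* turned or came to 0 with the length and GC trend removed.

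Whether the difference between genotypes changed with age was tested by the interaction in the fit of all 15 libraries, at an adjusted p below 0.01. *S100b* was called (log2 difference of fold changes -1.94, SE 0.38, adjusted p = 0.00165), beside 25.6% of all genes (18.5% with a positive value and 7.05%, as for *S100b*, with a negative one), and it was -1.87 without *Socs3* cKO replicate 1 at 2 weeks (adjusted p = 0.00145). With the length and GC trend removed it was -0.98 (adjusted p = 0.0266). *Prx* had a value of 1.99 (SE 0.68, adjusted p = 0.0278), *Sox10* one of 1.62 (adjusted p = 0.0852), *Mag* 1.27 (SE 0.43, adjusted p = 0.0278), *Cnp* 0.68 (adjusted p = 0.0503), *Mbp* 0.47 (adjusted p = 0.274) and *Pmp22* -0.21 (adjusted p = 0.614), and none of these was called. Their median of 0.68 with *S100b* included stood beside one of 0.55 over all genes.

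Most other genes of the myelin sheath that were called with age in the wild type fell. Of 16 listed, 15 were measured and 13 were tested. Of these 5 were called lower at 10 weeks and 1 higher, beside 19.4% and 6.18% of all genes, with a median log2 fold change of -0.92 beside -0.44 over all genes. The proteolipid *Mal* (-1.88, SE 0.33, adjusted p = 0.000438), the tight junction gene *Cldn19* (-1.58), the galactolipid enzyme *Ugt8a* (-1.65), the node of Ranvier gene *Gldn* (-1.23) and the deacetylase *Sirt2* (-1.01) fell. The sulfatide enzyme *Gal3st1* rose (1.05, SE 0.23, adjusted p = 0.0023). Of these 6 calls only that of *Mal* held under every alternative and with any mouse left out.

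Between genotypes at 2 weeks, limma called none of the 13 other sheath genes, beside 14.4% of all genes, and their median was 0.21, beside -0.21 over all genes. At an unadjusted p below 0.05, 2 were higher and 2 lower, beside 58.0% of all genes. Without *Socs3* cKO replicate 1, and also with the length and GC trend removed, 1 was called in each direction. *Cd9* and *Fa2h*, the most abundant genes of the list, are also made by keratinocytes and sebaceous glands. *Cd9* had a log2 fold change of 0.99 (adjusted p = 0.00703), just under the fold threshold, which turned to -0.1 with the length and GC trend removed, and *Fa2h* had one of 0.31 (adjusted p = 0.557). At 10 weeks only *Gldn* was called (1.25, SE 0.22, adjusted p = 0.00306), with the cKO higher. It was not called under either other scaling (0.99 and 0.81), with the trend removed (0.89), or without wild type replicate 1 or 3 or *Socs3* cKO replicate 1 or 2 (adjusted p = 0.0104 to 0.0151). In the interaction *Gldn* (1.69), *Sirt2* (1.09) and *Gal3st1* (-1.63, adjusted p = 0.00159) were called, and of these *Gal3st1* held under every alternative. None of the 13 was called with age in *Socs3* cKO, where 5 were lower at an unadjusted p below 0.05, beside 26.4% of all genes past it.

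Among 12 regulators of Schwann cells, 10 were tested with age in the wild type and 4 were called lower, beside 19.4% of all genes. *Erbb3*, the receptor through which axonal neuregulin reaches the Schwann cell, was at 28.0, 26.1, 16.5 and 22.8 FPKM at 2 weeks and 0.477, 3.17 and 0.692 FPKM at 10 weeks (log2 fold change -4.33, SE 0.77, adjusted p = 0.000515), and held under every alternative and with any mouse left out. *Egr2*, the partner of *Sox10* in myelination, fell from levels of 23.1 to 24.2 FPKM to levels of 8.55, 9.35 and 5.05 FPKM (-1.67, SE 0.36, adjusted p = 0.00191), a call lost only without wild type replicate 3 at 10 weeks (adjusted p = 0.0154). Its co-repressor gene *Nab2* (-1.92) and the Schwann cell signal *Dhh* (-1.69) fell as well, but *Nab2* lost its call in 6 of 7 fits with 1 mouse left out (adjusted p up to 0.0243) and *Dhh* without wild type replicate 1 at 10 weeks (adjusted p = 0.0122). At 10 weeks *Erbb3* was higher in the mice labelled *Socs3* cKO, at 10.5, 13.7, 16.0 and 4.2 FPKM (3.13, SE 0.61, adjusted p = 0.00451), as were *Egr2* (1.23, SE 0.27, adjusted p = 0.00696) and *Zeb2* (1.36, SE 0.17, adjusted p = 0.000686), which were 3 calls of 9 genes tested, beside 12.5% of all genes called higher. *Egr2* and *Erbb3* lost their calls there on leaving out any mouse of that age but wild type replicate 2 or *Socs3* cKO replicate 4 (adjusted p up to 0.0268 and 0.0281). *Egr2* also lost its call under both other scalings (0.97 and 0.87), with no filter, with a constant prior variance and in 1 fit of all 4 groups (adjusted p up to 0.017), and *Zeb2* lost its call under quantile normalization (0.94) and with the length and GC trend removed (0.74). The interaction was called for *Erbb3* (4.98, adjusted p = 0.0025), *Egr2* (2.65, adjusted p = 0.0012), *Nab2* (2.93) and *Zeb2* (1.05), and those of *Erbb3* and *Egr2* held under every alternative. *Erbb3* and *Egr2* are also made by epithelia and hair follicles. At 2 weeks limma called none of the 10 between genotypes, with a median of -1.23 beside -0.21 over all genes, and 6 were lower at an unadjusted p below 0.05, beside 58.0% of all genes past it in either direction. *Erbb2*, the most abundant, had a log2 fold change of -1.89 (adjusted p = 0.0331), and *Pou3f1*, next to it in abundance, one of -0.93 (adjusted p = 0.241), which turned to 0.33 with the length and GC trend removed. Without *Socs3* cKO replicate 1, 4 of the 10 were called lower, beside 19.9% of all genes called, and the median was -0.85, beside -0.1. None was called with age in *Socs3* cKO, where 3 were higher at an unadjusted p below 0.05, beside 26.4% of all genes past it.

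Genes of immature and non-myelinating Schwann cells were called in both directions at 2 weeks. Of 9 tested, *Cdh19* and *Scn7a* were called higher in the libraries labelled *Socs3* cKO, and *Ncam1* and *Foxd3* lower, beside 7.24% and 7.19% of all genes. *Scn7a*, a sodium channel of non-myelinating Schwann cells, was at 1.68, 1.98, 1.64 and 1.65 FPKM in the wild type and 8.97, 4.92, 6.26 and 4.98 FPKM in *Socs3* cKO (log2 fold change 1.76, SE 0.22, adjusted p = 0.00081), with no overlap. The call held under every alternative, at 1.16 with the length and GC trend removed and at 1.57 without replicate 1. *Cdh19*, a cadherin of the Schwann cell lineage, was at 2.83, 2.55, 2.31 and 2.53 FPKM against 10.9, 6.51, 10.7 and 6.47 FPKM (1.68, SE 0.22, adjusted p = 0.00109), and was 0.8 with that trend removed (adjusted p = 0.0111). *Ncam1* (-1.28, adjusted p = 0.00951) and *Foxd3* (-1.92, adjusted p = 0.00951) lost their calls on leaving out any 1 of the wild type mice of that age (adjusted p up to 0.0318). Both calls were also lost without *Socs3* cKO replicate 3 or 4, and that of *Foxd3* without replicate 2. Of 11 other settings, 6 took the call of *Ncam1* and 5 that of *Foxd3*. Removal of the length and GC trend was among them (-0.97 for *Ncam1* and -0.62 for *Foxd3*).

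*Cdh19* was also called at 10 weeks, at 0.404, 0.943 and 0.517 FPKM in the wild type and 6.11, 4.45, 2.98 and 6.3 FPKM in *Socs3* cKO. The 7.98-fold difference (log2 fold change 2.82, SE 0.35, limma adjusted p = 0.000615) held under every alternative. At that age the gene met the filter of 1 FPKM only through mice labelled *Socs3* cKO, so this call is not independent of the filter. With age in the wild type, 5 of the 10 genes fell, beside 19.4% of all genes, namely *L1cam* (-2.14), *Fabp7* (-1.98), *Cdh19* (-1.95), *Gap43* (-1.39) and *Gfra3* (-1.35), and *Gfap* rose (2.82, SE 0.71, adjusted p = 0.00501). *Cdh19* alone of these 6 kept its call under every alternative and with any mouse left out. The interaction was called for *L1cam* (2.57, adjusted p = 0.00617) and lost on leaving out any of 11 mice. None of the 10 was called with age in *Socs3* cKO, where 3 were lower at an unadjusted p below 0.05, beside 26.4% of all genes past it. *Ngfr*, the low-affinity neurotrophin receptor, was not called at 2 weeks between genotypes (-1.19, adjusted p = 0.0835).

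The repair programme of injured nerves was listed with 8 genes. At 2 weeks 3 of 6 tested were called lower in the libraries labelled *Socs3* cKO, beside 7.19% of all genes, namely *Shh*, *Runx2* (-1.66) and *Clcf1* (-2.17, SE 0.3, adjusted p = 0.00125). *Shh*, which growing hair follicles also make, was at 0.824 to 1.26 FPKM in the wild type and 0 to 0.0271 FPKM in *Socs3* cKO. It met the filter of 1 FPKM only through wild type mice of 2 weeks. Its calls, here and below, are thus not independent of the filter, and neither is the count of 3 of 6 that includes it. No alternatives are given for *Shh*. At 10 weeks 2 of 5 were called higher, beside 12.5% of all genes, namely *Jun* (2.41, SE 0.3, adjusted p = 0.000627) and *Clcf1* (2.57, SE 0.25, adjusted p = 0.000188). *Jun* is a general stress gene of many cell types. The interaction was called for *Clcf1* (4.74), *Jun* (3.36), *Runx2* (2.2) and *Shh*, and *Clcf1* (1.87, adjusted p = 0.000595) and *Runx2* (1.48, adjusted p = 0.00415) rose with age in *Socs3* cKO. In the wild type *Clcf1* (-2.87), *Jun* (-2.17) and *Shh* fell with age. The call of *Jun* there was lost on leaving out any 1 of the wild type mice (adjusted p = 0.0124 to 0.0439), and also under median-of-ratios scaling (-1.78), with no filter and with a constant prior variance, and its interaction was lost in 10 of 15 fits with 1 mouse left out. The calls of *Clcf1* held under every alternative except that, with age in *Socs3* cKO, it was not called when those 2 groups alone were fitted (adjusted p = 0.0172). The *Runx2* call at 2 weeks was lost on leaving out any mouse of that age but *Socs3* cKO replicate 1 or 2, and that with age in *Socs3* cKO without replicate 3 or 4 at 2 weeks or 1 or 3 at 10 weeks. Axon and sensory neuron transcripts were scarce, and 10 of 13 were below 1 FPKM on average in every group. Of the 3 tested, *Tubb3* was called lower at 2 weeks in the libraries labelled *Socs3* cKO (-3.03, SE 0.19, adjusted p = 4.45e-05) and *Uchl1* at 10 weeks (-1.41), where the latter was not called with the length and GC trend removed (-0.78, adjusted p = 0.0336) or without wild type replicate 3 (adjusted p = 0.0185). *Tubb3* also fell with age in the wild type (-2.09). *Stmn2*, the most abundant, was called in no comparison, and its value at 10 weeks was 1.07 (adjusted p = 0.0314).

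The 7 genes did not form a single pattern over the 15 mice. As the measure of likeness, the root mean square difference of log2(FPKM + 0.1), centred on the mean of each gene, was taken over all 15 libraries against every other gene tested. Genes close to *Prx* were *Ablim3* (0.29), *Flnc* (0.31) and *Slc25a23* (0.33). *Cnp* was the second nearest gene to *Mbp* (0.23), and outside the list *Mbp* had *Gucy1a3* (0.2), *Sh3tc2* (0.24) and *Banp* (0.24) nearest. *Sh3tc2* is a gene of Schwann cells whose loss causes a demyelinating neuropathy. *Cnp* was nearest to *Pomt2* (0.17), *Banp* (0.18) and 9130019O22Rik (0.19). *Sox10* was nearest to *Aatk* (0.27), *Tead2* (0.29) and *Emid1* (0.29), *Mag* to *Sall2* (0.32), *Pcsk5* (0.33) and *Jmjd5* (0.34), and *Pmp22* to *Fam164a* (0.14), *Tfpi* (0.14) and 1700034H14Rik (0.16). Within the list, *Cnp* was at place 69 and *Prx* at place 105 of 13936 from *Mag*, and *Prx* at place 127 from *Sox10*. Counted from *Mbp*, in contrast, *Sox10* was at place 10607. *S100b* was nearest to *Ccl21a* (0.24), *Ddt* (0.26) and *Ccl21b* (0.26), and at place 12886 of 13936 from *Mbp* and 13291 from *Prx*. The measure also counts the size of a change, so genes that moved in the same direction by different amounts can stand far apart. It is a description over libraries that also share the GC trend.

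Other cells that make some of these genes were measured beside them, as the sum of the FPKM of a marker list in each library. Oligodendrocytes, the myelin cells of the brain, were not seen, as their 6 markers summed to at most 2.64 FPKM in any library and 5 of the 6 were below 1 FPKM on average in every group. Melanocyte markers, which matter for *Sox10*, summed to between 161.0 and 218.0 FPKM in young and between 57.8 and 83.6 FPKM in old wild type ears, and 4 of 7 were called lower with age there, beside 19.4% of all genes. In *Socs3* cKO they summed to between 134.0 and 337.0 FPKM and then to between 53.1 and 119.0 FPKM. None of the 7 markers was called between genotypes at 2 weeks, beside 14.4% of all genes, and neither was *Sox10*. At an unadjusted limma p below 0.05, 3 of the 7 markers were lower there and none higher, beside 58.0% of all genes. Adipocyte markers, which matter for *S100b*, summed to between 226.0 and 262.0 FPKM in young wild type ears, the lowest group as for *S100b*, and to between 333.0 and 450.0 FPKM in old ones. In *Socs3* cKO they summed to between 416.0 and 823.0 FPKM and then to between 415.0 and 805.0 FPKM. Of these 7 markers, 2 were called higher with age in the wild type, beside 6.18% of all genes. Another comparison, that of genotypes at 2 weeks, had 2 of 7 higher in the libraries labelled *Socs3* cKO, beside 7.24% of all genes, and a median log2 fold change of 1.03. Cartilage markers summed to between 323.0 and 493.0 FPKM in young and between 204.0 and 274.0 FPKM in old wild type ears, and to between 207.0 and 415.0 FPKM and then between 286.0 and 509.0 FPKM in *Socs3* cKO. Skeletal muscle markers summed to between 1470 and 2390 FPKM in *Socs3* cKO at 2 weeks, against between 646.0 and 973.0 FPKM in the wild type, and 4 of 7 were called higher there, beside 7.24% of all genes. At 10 weeks the sums lay between 307.0 and 583.0 FPKM in *Socs3* cKO against between 547.0 and 948.0 FPKM, lower with some overlap, and 6 of 7 were called lower with age in *Socs3* cKO, beside 1.53%. T cell markers summed to between 17.8 and 26.1 FPKM in young wild type ears, again the lowest group, to between 34.9 and 37.8 FPKM in old ones, and to between 28.9 and 47.1 FPKM and then between 34.1 and 50.6 FPKM in *Socs3* cKO. Markers of macrophages and neutrophils lay between 201.0 and 426.0 FPKM in the wild type and between 509.0 and 1450 FPKM in *Socs3* cKO. The part of these cells in the values of the 7 genes was not tested.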

How the data were processed

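Ear RNA libraries of 15 mice were analysed (wild type n = 4 and *Socs3* cKO n = 4 at 2 weeks, n = 3 and n = 4 at 10 weeks). The paper lists more wild type mice, which were not analysed here. The authors prepared libraries with TruSeq RNA v2, read single ends of 50 bases, aligned them to mm9 with TopHat2 (2.1.0 per the submitters' notes, which also name Cufflinks without a role), and deposited 1 FPKM value per gene and mouse, normalized for length and mapped reads. Read counts were not used here. Genes were tested with limma 3.58.1 in R 4.3.3, whose prior variance followed the mean level, on log2(FPKM + 0.1), for genes of at least 1 FPKM in at least 3 of the libraries compared, 2-sided, with Benjamini-Hochberg adjustment over all genes tested. Genotypes were compared within each age, and ages and the interaction in 1 fit of all 4 groups. The step was tested on simulated data. Sums, ratios and promoters used Python 3.11.15, pandas 2.3.3 and numpy 2.4.6, and figures matplotlib 3.10.9.

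The members and the gene lists were chosen with earlier results of these data known. Text names all 7 genes, from each other Schwann cell or axon list the 3 genes of highest mean FPKM and genes called, and for each of the 7 the 3 most alike genes outside the list. Some genes are not reported here and were left out of the lists. Marker lists of other cells are given as sums. Depth was estimated from small values and gives no counting error per gene. No pair of libraries shared more than 1 identical value above 0. Alternatives were other pseudocounts (1, 0.01), filters, scalings, prior, replicate block, threshold and samples fitted, and each mouse left out. Removal of each library's trend with length and GC content (splines with 5 degrees of freedom) was chosen after seeing the data.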

Additional observations from a re-analysis of the deposited data

Results flagged for a closer look

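*Sox10* and *Mag* each had 1 library far from its group. In *Socs3* cKO at 2 weeks, replicate 1 was the lowest for *Sox10* (0.802 FPKM against 5.29 to 6.74), with a gap to the nearest mouse of 0.882 of the range of the group, and for *Mag* (1.15 FPKM against 2.05 to 2.22), with a gap of 0.879. Both gaps passed the 95% limit of Dixon's test for 4 samples. In all 21 groups of 4 were examined, and chance passes about 1 in 20. The same library had the steepest slope with GC content (-1.91 on the log2 scale per 10 points). The part of that slope in these values was not tested beyond the removal of the trend.

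The difference of *S100b* between genotypes differed between the ages, with an interaction of -1.94 (SE 0.38, limma adjusted p = 0.00165), since 4 of 4 mice labelled *Socs3* cKO were above the wild type at 2 weeks and the groups overlapped at 10 weeks.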

How the results depend on the processing

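For the 7 genes, 34 results gave 675 values under alternatives, of which 626 kept direction and side of the threshold, 16 lost a call, 15 gained one and 18 turned in sign. With the length and GC trend removed, at 2 weeks *Mbp* was 0.15 and *Cnp* 0.08, at 10 weeks *Mbp* -0.1, *Sox10* 0.0 and *S100b* 0.04, in the interaction *Mbp* -0.24 and *Pmp22* 0.42, with age in *Socs3* cKO *S100b* 0.19, and at 2 weeks *Cd9* -0.1 and *Pou3f1* 0.33. That setting also took the calls of *Mbp* (-0.47) and *Cnp* (-0.97) with age in the wild type and gave those of *Sox10* (-1.41) and of *Mag* in *Socs3* cKO (-1.15). Median-of-ratios scaling and quantile normalization turned the 10 week values of *Mbp* (-0.04 and -0.01) and *Cnp* (-0.02 and -0.13), the first also the interaction of *Mbp* (0.0) and the second that of *Pmp22* (0.14). With 1 mouse left out in turn, *Sox10* at 10 weeks ranged from -0.5 to 0.01 and *S100b* with age in *Socs3* cKO from -0.32 to 0.11 (0.09 without replicate 2 at 10 weeks), and *Sox10* with age in *Socs3* cKO came to 0.01. The cause was not tested.

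Counts over all genes moved with the threshold, the groups fitted and the mice left out. At an adjusted p below 0.05 with no fold threshold, 6479 genes differed between genotypes at 2 weeks (1951 as reported), 4931 at 10 weeks (1957), 6556 in the interaction (3566), 7077 with age in the wild type (3559), and for *Socs3* cKO 1406 (493). One fit of all 4 groups gave 3300 at 2 weeks, and a fit of only the 2 groups compared gave 146 with age in *Socs3* cKO. Leaving out 1 mouse gave 859 to 3348 at 2 weeks, 745 to 2665 at 10 weeks, 1994 to 5117 in the interaction, 2205 to 3826 with age in the wild type, and for *Socs3* cKO 300 to 700. The counts lay outside 1.5 times the reported ones without any mouse of 2 weeks but *Socs3* cKO replicate 1 (3348 without replicate 2), without any mouse of 10 weeks but wild type replicate 2 and *Socs3* cKO replicate 4, in the interaction without wild type replicate 2 of 2 weeks (2358) or replicates 1 or 3 of 10 weeks, with age in the wild type without those replicates 1 or 3, and with age in *Socs3* cKO without replicates 1, 2 or 3 of 10 weeks. Higher calls were 83.7% of those at 10 weeks, and 62.9% and 54.3% under the other scalings. They were 72.4% of the interaction, against 52 and 45.4%, and 24.2% with age in the wild type, against 47.1 and 48.8%. At 2 weeks they were 50.2%, and 31.2% with the trend removed.

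The replicate number as a block changed no call of the 7 genes and left 751 genes at 2 weeks. Deviations of same-numbered mice of the 2 genotypes correlated at -0.203 to 0.057, so the numbers do not pair the mice.

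Depth limits *Mag*, with as few as 13.7 estimated reads in a library, and *Sox10*, with 29.9.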
